A study of Mus musculus with 12 samples.

Results

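E-proteins and Id proteins set the activity of proneural basic helix-loop-helix (bHLH) factors, and the peaks of 5-methylcytosine (5mC) and 5-hydroxymethylcytosine (5hmC) nearest to their 7 genes were examined in the developing mouse cortex. The genes were the E-proteins Tcf4, Tcf3 and Tcf12 and the antagonists Id1, Id2, Id3 and Id4, and their peaks were all those that the authors assigned to one of these symbols by the nearest transcription start site (TSS). This gave 85 peaks of 102563, of which 38 of 55085 were 5mC peaks and 47 of 47478 were 5hmC peaks. The E-proteins held 35 of them and the Id genes 50.

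The cells came from the cortex of mouse embryos at E14.5 that carried both a Btg2-RFP and a Tubb3-GFP reporter, each on 1 allele. Sorting gave proliferating progenitors (PP), which lacked both reporters, differentiating progenitors (DP), which were positive for RFP alone, and neurons, which were positive for GFP with or without RFP. The reporters thus define the groups, and PP are whatever cells of the dissociated cortex showed neither. The series lists 12 samples, 6 of them immunoprecipitated with an antibody to 5mC or 5hmC and the others their input controls. For each peak the tables give 1 log2 level per cell type, already averaged by the authors over the replicates. Hence the error between replicates cannot be shown here, and no difference was tested. The tables hold no read counts, so the depth behind each level is not shown by them.

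E-proteins are broadly expressed bHLH factors that pair with tissue-restricted class II bHLH proteins such as Neurog2 and bind the E-box, CANNTG. Id proteins have the helix-loop-helix but lack the basic region, so that they bind E-proteins without contacting DNA and keep them from proneural partners. In neural progenitors Id genes are targets of bone morphogenetic protein (BMP) signalling and are known for holding back differentiation. 5mC is the main methylated base of the genome, and Tet enzymes oxidise it to 5hmC, which is abundant in neurons.

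The nearest of the 85 peaks lay 2607 bp from its TSS. RefSeq promoter windows (GRCm38.p6, 250 bases before to 50 bases after the start) were found for 5 of the 7 genes, 7 windows in all, and none was given for Id1 or Tcf4. Peaks of either mark overlapped 0 of these 7 windows, but such overlap was rare for genes in general, at 1.27% for 5mC and 1.71% for 5hmC over the 12369 windows of genes in the tables. The 250 bases before the start are shown for Id2 and Id4, the Id genes with the most peaks and with opposite expression, and for Tcf3, the E-protein with the largest expression difference. They lie at chr12:25096093-25096342 (Id2, minus strand), chr13:48260866-48261115 (Id4, plus strand) and chr10:80433636-80433885 (Tcf3, minus strand), they are written 5′ to 3′ along the gene, and capitals mark each CpG, the dinucleotide that carries most of the methylation in mammals.
Id2: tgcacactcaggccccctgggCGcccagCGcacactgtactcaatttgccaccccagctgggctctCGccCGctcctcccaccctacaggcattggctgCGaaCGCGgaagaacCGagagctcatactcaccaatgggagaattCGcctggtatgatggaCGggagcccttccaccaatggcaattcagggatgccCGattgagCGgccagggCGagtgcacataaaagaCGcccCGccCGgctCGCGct
Id4: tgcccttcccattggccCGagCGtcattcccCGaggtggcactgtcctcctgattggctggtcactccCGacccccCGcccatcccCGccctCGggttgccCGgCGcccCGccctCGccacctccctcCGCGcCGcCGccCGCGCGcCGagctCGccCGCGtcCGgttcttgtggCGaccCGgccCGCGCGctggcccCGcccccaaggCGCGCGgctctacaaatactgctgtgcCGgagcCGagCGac
Tcf3: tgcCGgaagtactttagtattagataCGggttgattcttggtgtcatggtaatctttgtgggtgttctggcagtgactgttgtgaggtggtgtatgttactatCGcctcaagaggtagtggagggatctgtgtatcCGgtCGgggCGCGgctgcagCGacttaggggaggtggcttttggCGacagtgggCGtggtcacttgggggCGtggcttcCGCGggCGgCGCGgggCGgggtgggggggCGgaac
These stretches held 18 CpG for Id2, 35 for Id4 and 18 for Tcf3. Over the whole 300-base window, Id4 had 39 CpG, more than 95.5% of all windows. The median was 7 over all 32851 windows and 18 over the 12369 windows of genes in the tables. The E-box, searched as CANNTG, which reads the same on the other strand, was present in 5 of the 7 windows, 3 of them of Tcf12. This was 71.4%, against 72.3% of all windows and 65.8% of the windows of genes in the tables. Id2 and Tcf3 each held a match in the printed stretch, CAGCTG and CACTTG, and Id4 held none.

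Expression of the 7 genes, which the authors carried over from an earlier RNA-seq of the same 3 sorted populations, separated Id2 from the other Id genes. The score has no stated scale and 1 value per cell type, so differences are given on the log2(score + 1) scale, and a 1.5-fold difference (0.58 on the log2 scale) is called by size alone. Marker genes went the way of the labels, though Btg2 and Tubb3 are the genes of the sorting reporters and so are no check of them. All 6 PP markers with a value were lower in neurons than in DP, and 5 of them were lower in DP than in PP, by the 1.5-fold size. All 5 DP markers, Btg2 among them, were highest in DP. All 5 neuron markers with a value, Tubb3 among them, were higher in neurons.

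Id4 differed most and stood at 20567 in PP, 8750 in DP and 788 in neurons, 26.1-fold lower in neurons than in PP. Id1 went the same way, from 626 in PP to 385 in DP and 41.9 in neurons. Id3 was highest in DP, with 345 in PP, 612 in DP and 133 in neurons, so that DP and neurons differed by −2.19 on the log2 scale. Id2 alone among the 7 was higher in neurons than in DP by the 1.5-fold size, with 1390 in PP, 2190 in DP and 10808 in neurons, or 7.77-fold from PP to neurons.

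The E-proteins differed less. Tcf4, known for the human Pitt-Hopkins syndrome and not to be taken for the Wnt effector Tcf7l2 that shared its name, had a score of 45842 in PP and 66998 in DP against 59100 in neurons, and neither step reached 1.5-fold. Tcf12, also called HEB, was likewise under that size in both steps, at 10036 in PP, 13171 in DP and 9427 in neurons. Tcf3 was level between PP and DP (17929 and 18262) and 2.54-fold lower in neurons (7196).

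**Figure D1:**
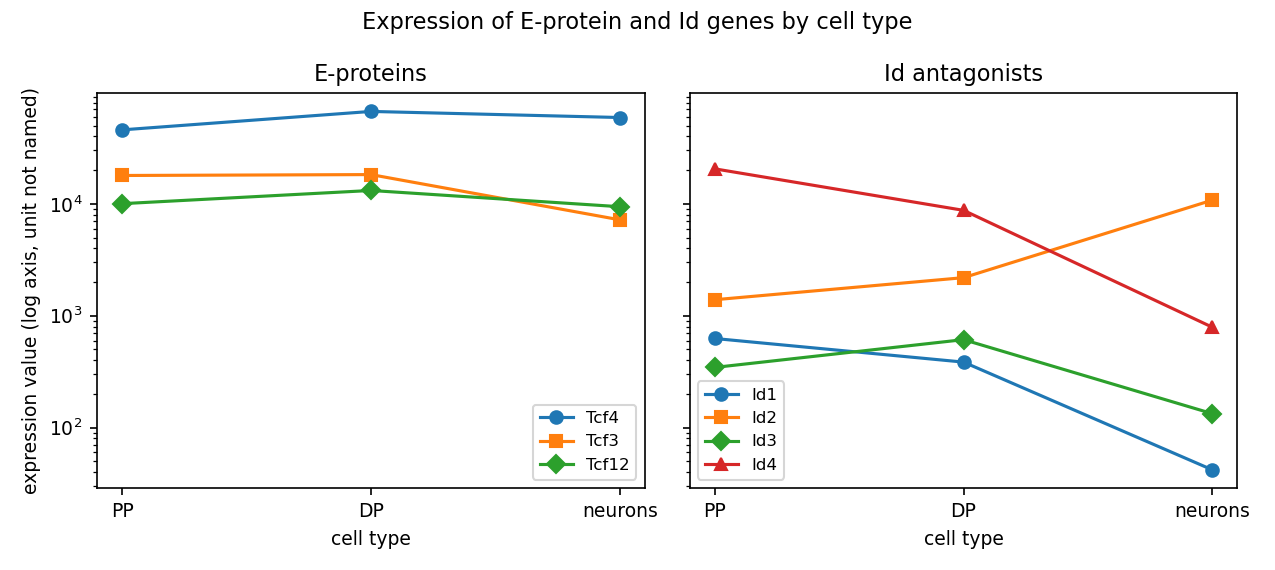
Expression score of the E-protein genes (left) and Id genes (right) in PP, DP and neurons, on a log axis whose unit the tables do not name; each point is the authors' value for a cell type and there are no error bars. Id4 drops from 20567 in PP to 788 in neurons while Id2 goes from 1390 to 10808, and the Tcf4 line stays between 45842 and 66998.

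In all, 2 of the 7 genes were higher in DP than in PP (13.8% of the 16293 genes in the tables were) and 2 were lower (17% of all). From DP to neurons 1 was higher (26.3% of all) and 4 were lower (26.1% of all). The median difference over all genes was −0.02 and 0.01 in these steps, against 0.39 and −1.34 over the 7.

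In such sorted bulk populations, fewer cells of a type and less RNA per cell cannot be told apart. Markers of vessel and immune cells also differed between the groups. The 9 endothelial markers summed to 879 in PP, 546 in DP and 403 in neurons, with 8 of 9 lower in DP than in PP and 6 of 9 lower in neurons than in DP. The 4 pericyte markers with a value summed to 1725, 446 and 113, and the 4 microglia markers to 353, 212 and 78.4. Among these 17 markers none was at 0 in any cell type, the lowest being Anpep in neurons at 0.4. The 4 interneuron markers with a value went in the direction of Id2, summing to 971, 3616 and 10576. The part of these cells in the Id1, Id3, Id4 and Id2 differences was not tested.

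Lists of possible partners and of pathway genes were read from the same columns. Of 22 class II bHLH genes, 15 had a value, and 11 were higher and 2 lower in DP than in PP (13.8% and 17% of all genes were). The median was 1.36 on the log2 scale, which is the value of Olig3 at scores of 2.5 in PP and 8 in DP. Scores were under 100 in every cell type for 6 of the 15, namely Olig1, Olig3, Bhlhe23, Tal1, Tal2 and Twist1. From DP to neurons 5 were higher and 9 lower (26.3% and 26.1% of all genes were), with a median of −0.97. The largest differences from PP to neurons were those of Nhlh2 (6.48), Bhlhe22 (6.08), Neurod6 (5.49) and Tal1 (−5.12) on the log2 scale. Of these, Neurod6 is a neuronal differentiation factor of the cortex and Tal1 a blood and vessel factor.

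The Hes and Hey repressors, bHLH proteins many of which act downstream of Notch, mostly went the way of Id4 after the DP stage. Of 9 listed, 6 had a value, with 2 higher and 3 lower in DP than in PP (13.8% and 17% of all genes were). From DP to neurons 1 was higher (26.3% of all) and 5 were lower (26.1% of all), with a median of −2.90. The higher one was Hes7, whose scores were under 100 in every cell type. The largest log2 differences from PP to neurons were Hes1 at −7.35, Hes5 at −6.96 and Hey2 at −3.42.

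In the BMP-SMAD list, 19 of 20 genes had a value and the median differences were −0.04 and −0.07 on the log2 scale. From PP to DP 3 were higher and 4 lower (13.8% and 17% of all genes were). From DP to neurons 5 were higher and 8 lower (26.3% and 26.1% of all genes). Among those that differed most from PP to neurons, the BMP antagonist Nog stood at −4.76 and the SMAD Smad9 at −2.98, and the ligands Bmp4 at −2.61 and Bmp2 at 2.21. Smad9 and both ligands were among 5 of the 19 genes with scores under 100 in every cell type.

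Peaks were unevenly spread over the 7 genes. Id2 had 17 5mC and 16 5hmC peaks, more than 98.3% and 97.7% of the genes with a peak of that mark. Tcf4 had 10 and 15, more than 92.9% and 97.2%, and Id4 had 5 and 9. Tcf3 held 4 of each and Tcf12 1 of each, whereas Id1 had only 2 5hmC peaks and Id3 only 1 5mC peak. The median gene with a peak had 3 5mC peaks or 2 5hmC peaks.

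E-protein peaks mostly lay within their long genes, as 10 of 15 5mC peaks and 15 of 20 5hmC peaks did. The Id genes are short, between 1.16 kb for Id1 and 4.91 kb for Id4, and 0 of their 50 peaks lay inside. Over all 7 genes the median distance to the TSS was 55.3 kb for 5mC and 57.9 kb for 5hmC, against 20.4 kb and 27.2 kb over all peaks. All 14 peaks assigned to Id4 lay in the RefSeq span of its neighbour A330033J07Rik, and of the 33 assigned to Id2, 8 lay in Gm36287, 6 in Kidins220, 2 in Gm36723 and 17 in no RefSeq gene. Whether a peak acts on the gene with the nearest TSS was not tested.

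For each mark, the difference between 2 cell types is given as the later minus the earlier level, less the median difference of all peaks of that mark. This median was −0.18 for 5mC from DP to neurons and −0.02 for 5hmC, it was −0.17 and −0.08 from PP to neurons, and it was under 0.01 in size from PP to DP. A peak is called gained or lost at 1.5-fold after this centring. The call is one of size and not of a test.

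From PP to DP, 3 of the 38 5mC peaks were gained (4.6% of all 5mC peaks were) and 4 were lost (5.44% of all). From DP to neurons 1 was gained (5.12% of all) and 11 were lost, or 28.9% of the 38 against 9.36% of all. Without centring these last counts were 1 and 14, against 2.26% and 15.5% of all. The median centred difference of the 38 peaks in this step was −0.19.

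5hmC leaned the other way. From PP to DP, 8 of 47 5hmC peaks were gained, 17.0% against 11.2% of all, and 2 were lost (4.68% of all). From DP to neurons 14 were gained, 29.8% against 16.5% of all, and 0 were lost (7.07% of all). The medians were 0.11 and 0.16.

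The calls depended on the level of a peak. By the highest of its 3 levels, 15 of the 38 5mC peaks were at or above the median of all 5mC peaks, and 6 of these 15 were lost from DP to neurons, where 5.55% of all such peaks were. The 23 below it held the other 5 losses. Of all 5mC peaks at any level 9.36% were lost, and the share among those below the median is higher than that. For 5hmC, 19 of 47 were at or above the median by this measure, and 5 of the 19 were gained from DP to neurons, where 15.9% of all such peaks were. The 28 below it held the other 9 gains. Of all 5hmC peaks at any level 16.5% were gained, and here too the share among those below the median is higher. Peaks were also split by their mean level over the cell types, which takes in the lower level before a gain or after a loss. By this mean, 10 5mC peaks were at or above the median, with 2 of the losses (3.34% of all such peaks). The 28 5mC peaks below it held 9 losses (15.4% of all such peaks). Of the 5hmC peaks, 18 were at or above the median mean level, with 2 of the gains (7.81% of all such peaks). The 29 below it held 12 gains (25.1% of all such peaks).

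**Figure D2:**
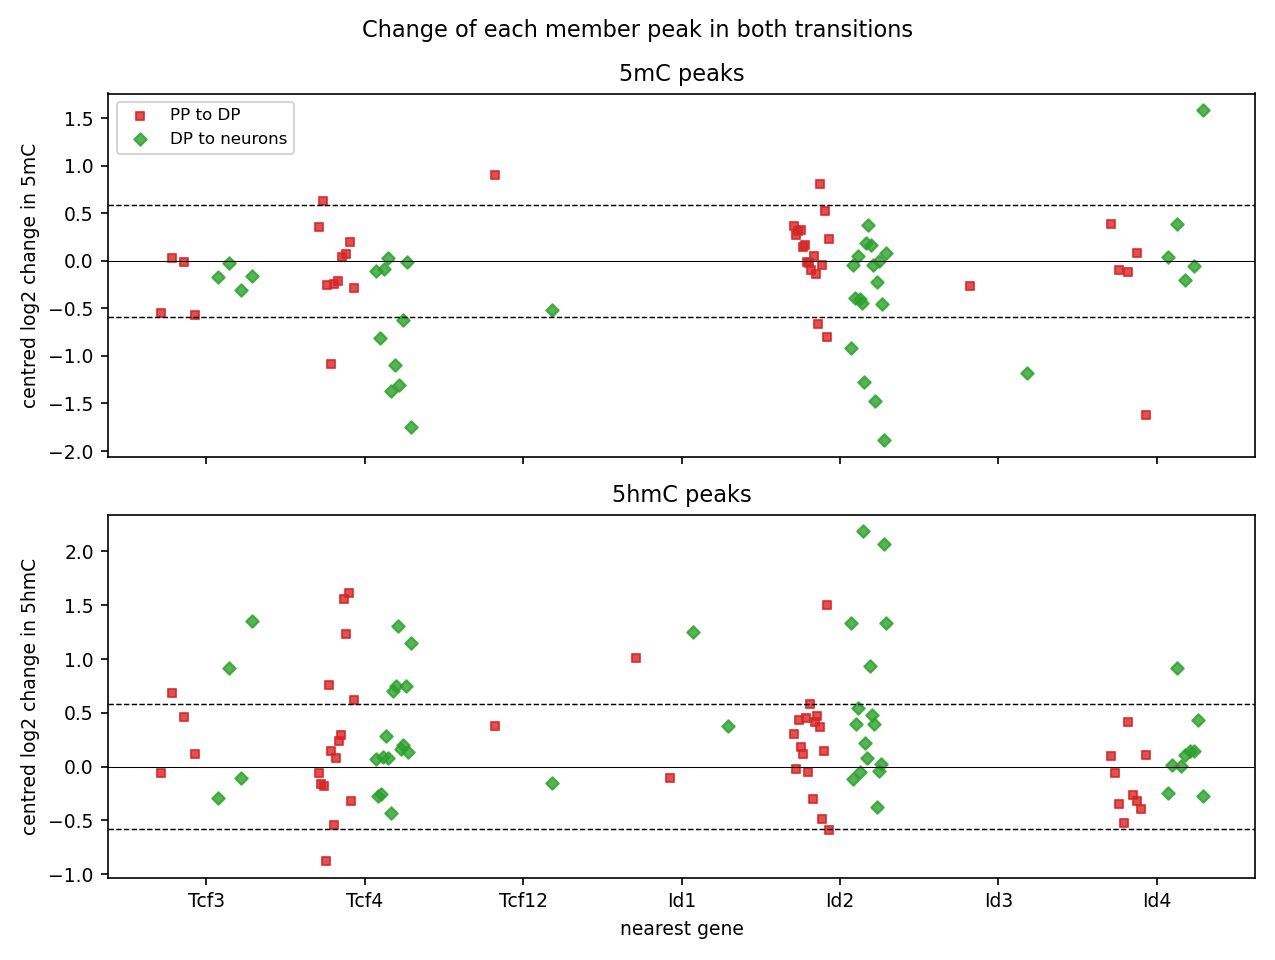
Centred log2 difference of every 5mC peak (top) and 5hmC peak (bottom) by nearest gene, with squares for PP to DP and diamonds for DP to neurons; dashed lines mark the 1.5-fold size and each point is a difference of 2 averaged levels, with no error bar. For 5mC, 11 diamonds lie below the lower line, and for 5hmC, 14 diamonds lie above the upper line and 0 below the lower.

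Tcf4, the gene with the longest span here (344.5 kb on chromosome 18, plus strand, mm10), had 10 of the 38 5mC peaks. It accounted for 6 of the 11 5mC losses from DP to neurons, or 60.0% of its 10 peaks against 9.36% of all. Of its 7 5mC peaks inside the gene, a subset set apart after the values were seen, 5 were lost in this step (9.36% of all 5mC peaks were), and the median level of the 7 was 4.58 in PP and 4.72 in DP against 3.19 in neurons. The largest loss was at 102.2 kb from the TSS (chr18:69446334-69446446), with a 5mC level of 5.25 in PP and 4.96 in DP against 3.03 in neurons, a centred difference of −1.75. A peak at 36.2 kb (chr18:69380249-69380376) had 4.58, 4.33 and 2.78, a difference of −1.37. Between PP and DP the peaks at 102.2 kb and 36.2 kb had differed by −0.29 and −0.24.

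A single 5mC peak in the gene was lost a step earlier. At 19.2 kb (chr18:69363229-69363373) its level went from 4.42 in PP to 3.34 in DP, then 3.19 in neurons. It gave both the largest loss from PP to DP (−1.08) and, at 0.04, the highest difference of the 10 from DP to neurons. By mean level it was above only 1.88% of all 5mC peaks. The strongest 5mC peak, at 95.4 kb, had levels of 5.53, 5.60 and 4.80. Upstream, the peak nearest to the TSS of all 38, at 2607 bp, had 4.40, 4.15 and 3.89 and was called in neither step.

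5hmC inside Tcf4 was gained at 5 of 11 peaks from PP to DP (11.2% of all 5hmC peaks) and at 5 of 11 from DP to neurons (16.5% of all). Losses were 0 in either step (4.68% and 7.07% of all). Of all 15 5hmC peaks of the gene, 5 were gained in each step. The split by place was made after the values were seen. The median 5hmC level of the 11 was 4.32 in PP and 4.79 in DP against 4.93 in neurons. The largest gain from PP to DP was at 94.7 kb (chr18:69438792-69438915), where the level went from 2.52 in PP to 4.13 in DP, then 4.86 in neurons. The largest from DP to neurons was at 72.8 kb (chr18:69416897-69417034), with 2.68 in PP, 2.97 in DP and 4.25 in neurons. By mean level the peaks at 94.7 kb and 72.8 kb were above only 6.63% and 2.11% of all 5hmC peaks.

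Not all of the gene's 5hmC followed. The peak at 55.4 kb went from 5.69 in PP to 5.14 in DP and 4.69 in neurons, the lowest difference from DP to neurons at −0.43. Of the 4 upstream 5hmC peaks 0 were gained in either step, where 11.2% and 16.5% of all 5hmC peaks were. With 4 peaks, a difference from these shares cannot be read. The strongest, at 24.4 kb upstream, had 6.18, 6.0 and 5.72. The one nearest to the TSS, at 13.6 kb upstream, was lost from PP to DP, with 4.69 in PP, 3.81 in DP and 3.87 in neurons.

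**Figure D3:**
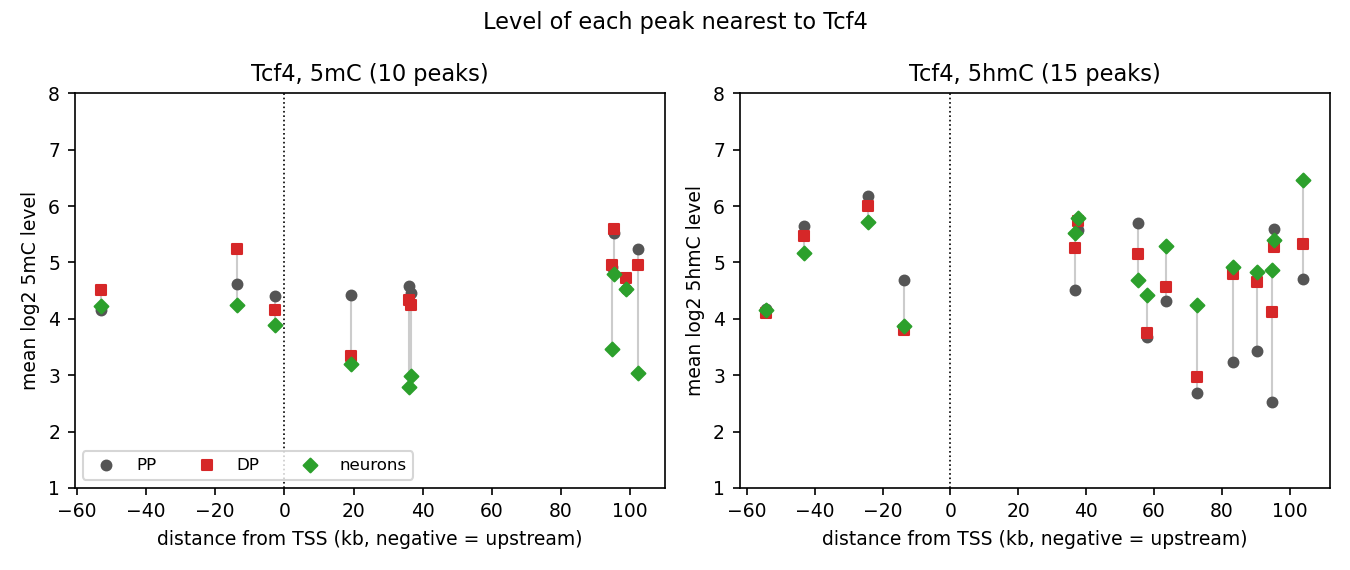
Mean log2 level of each 5mC peak (left) and 5hmC peak (right) nearest to Tcf4 against its distance from the TSS in kb, with circles for PP, squares for DP and diamonds for neurons; grey lines join the values of a peak, and there are no error bars. Inside the gene, right of the dotted line, 5 of 7 5mC peaks were lost from DP to neurons, down to 2.78, and the 5hmC peak at 94.7 kb goes from 2.52 to 4.86.

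Tcf3 (24.4 kb on chromosome 10, minus strand) had no 5mC peak that reached 1.5-fold in a single step. Its 5mC level at 10.4 kb inside the gene was 5.28 in PP and 4.72 in DP against 4.37 in neurons, and at 6653 bp inside it was 4.74, 4.77 and 4.57. Upstream, the peak at 10.4 kb had 4.33, 4.31 and 3.82, and the peak at 18.1 kb had 4.49, 3.91 and 3.58. All 4 were lowest in neurons before centring, but the median difference of all 5mC peaks from DP to neurons was itself −0.18. After centring, the peak at 6653 bp differed by only −0.02 in that step and by 0.002 from PP to neurons.

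Tcf3's 5hmC was split within the gene. The peak at 9285 bp was gained in both steps, with a level of 3.05 in PP and 3.72 in DP against 4.62 in neurons. Its neighbours were not called, the one at 8963 bp with 4.51, 4.96 and 4.83 and the one at 10.8 kb with 4.41, 4.35 and 4.03. The peak 18046 bp upstream (chr10:80451609-80451777) was gained from DP to neurons, from 3.45 in PP and 3.56 in DP to 4.89. By mean level the gained peaks at 9285 bp and at 18046 bp upstream were above only 6.03% and 9.53% of all 5hmC peaks.

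Tcf12 had a peak of each mark inside its 267.6 kb on chromosome 9. The 5mC peak at 17.9 kb was gained from PP to DP, with 3.78 in PP, 4.68 in DP and 3.98 in neurons. Its 5hmC peak at 34.6 kb was called in neither step, with 4.26, 4.64 and 4.46.

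Among the Id genes, Id2 (2.29 kb on chromosome 12, minus strand) had 17 of the 23 5mC peaks and 16 of the 27 5hmC peaks. From DP to neurons it held 4 of the 5 5mC losses, or 23.5% of its 17 peaks against 9.36% of all. In that step Id2 also held 5 of the 7 5hmC gains, or 31.25% of its 16 peaks against 16.5% of all. Its nearest 5mC peak, 7078 bp downstream of the TSS (chr12:25088949-25089079), had a level of 5.06 in PP and 5.05 in DP against 3.60 in neurons. The largest 5mC loss of Id2 in either step was at 248.3 kb upstream (chr12:25344354-25344482), with 5.92 in PP, 5.12 in DP and 3.06 in neurons, differences of −0.80 and −1.89. Another 5mC peak with losses in both steps lay 139.3 kb upstream and had 5.37, 4.70 and 3.05. Neurons were the lowest of the cell types at all of these.

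Other 5mC peaks of Id2 moved little or the other way. The strongest, 254.9 kb upstream, had levels of 7.32, 7.54 and 7.45, above 98.8% of all 5mC peaks. The peak 140.8 kb upstream was gained from PP to DP, with 4.16 in PP, 4.97 in DP and 4.57 in neurons. From DP to neurons the highest centred difference was 0.37, at 108.9 kb upstream, under the 1.5-fold size.

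The largest 5hmC gains of Id2 lay upstream, in the spans of other RefSeq genes. At 267.8 kb upstream (chr12:25363873-25363982, within Gm36723) the level went from 1.47 in PP to 2.98 in DP, then 5.02 in neurons, the largest gain from PP to DP. At 72.0 kb upstream (chr12:25168035-25168142, within Gm36287) it was 2.20, 2.64 and 4.81, the largest from DP to neurons. By mean level the peaks at 267.8 kb and 72.0 kb were above only 1.58% and 1.79% of all 5hmC peaks. The peak at 278.7 kb upstream was lost and then gained, with 3.87 in PP, 3.28 in DP and 4.59 in neurons.

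Other 5hmC peaks of Id2 differed less from DP to neurons. The nearest peak, 7028 bp downstream, had 4.61, 5.03 and 5.40, higher at each step but under 1.5-fold in both. The strongest, 34.3 kb downstream and within Kidins220, had 5.43, 5.41 and 5.27. The lowest difference from DP to neurons, −0.38, was at 183.2 kb upstream, with 4.70, 5.07 and 4.67.

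Id4 (4.91 kb on chromosome 13, plus strand) was the gene whose expression score differed most. Of its 5 5mC peaks, 1 was lost from PP to DP (5.44% of all 5mC peaks were). From DP to neurons 1 was gained (5.12% of all). Both calls were of the peak 19.4 kb upstream (chr13:48241914-48242050), which went from 3.79 in PP to 2.16 in DP and back to 3.57. By mean level it was above only 0.31% of all 5mC peaks. The other 4 were called in neither step: at 70.3 kb upstream 6.25, 6.33 and 6.09, at 87.9 kb 5.27, 5.15 and 4.77, at 90.8 kb 6.70, 6.60 and 6.81, and at 95.9 kb 3.83, 4.21 and 4.08.

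From PP to DP 0 of the 9 5hmC peaks of Id4 were called, where 11.2% of all were gained and 4.68% lost. From DP to neurons 1 was gained (16.5% of all) and 0 were lost (7.07% of all). The gained peak lay 87.9 kb upstream (chr13:48173513-48173631) and went from 4.37 in PP and 4.01 in DP to 4.90 in neurons. The strongest and nearest, 19.4 kb upstream, had 6.63, 6.73 and 6.44, above 97.7% of all 5hmC peaks, and also the lowest difference from DP to neurons (−0.27). From PP to DP the highest difference, 0.42, was at 73.3 kb upstream and the lowest at 80.6 kb, with 4.89, 4.36 and 4.34. The median 5hmC level of the 9 was 4.84, 4.61 and 4.77, while expression was 26.1-fold lower in neurons than in PP.

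**Figure D4:**
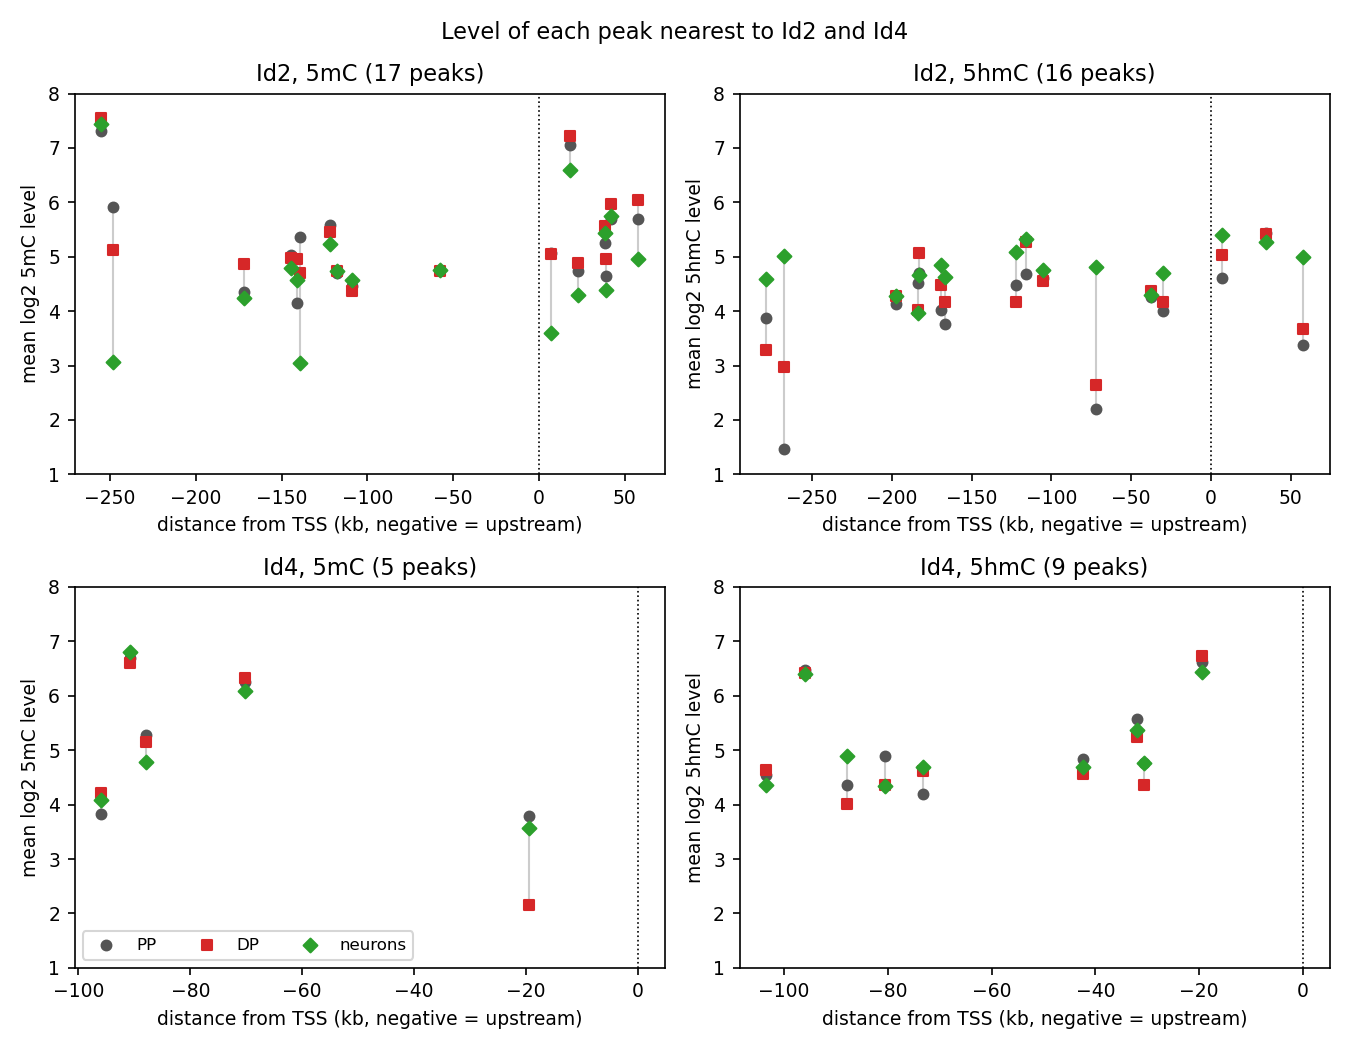
Mean log2 level of each peak nearest to Id2 (top) and Id4 (bottom), 5mC on the left and 5hmC on the right, against distance from the TSS in kb; circles are PP, squares DP and diamonds neurons, grey lines join the values of a peak, and there are no error bars. Id2 has neuron 5mC values down to 3.05 and a 5hmC peak that goes from 1.47 in PP to 5.02 in neurons, and most Id4 peaks keep their 3 values close together.

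Id1 and Id3, both lower in neurons than in DP, had 3 peaks between them. Of the 5hmC peaks upstream of Id1, the one at 8636 bp (chr2:152727553-152727678) was gained in both steps, from 2.06 in PP over 3.07 in DP to 4.29. By mean level it was above only 1.54% of all 5hmC peaks. The other, at 8181 bp, had 5.60, 5.49 and 5.84 and was not called. The 5mC peak 9036 bp downstream of the Id3 start (chr4:136152467-136152601) was lost from DP to neurons, with 4.92 in PP, 4.65 in DP and 3.29 in neurons. From DP to neurons, 5hmC was gained at 5 of 16 peaks of Id2, whose expression was higher in neurons (16.5% of all 5hmC peaks were gained). It was also gained at 1 of 2 peaks of Id1, 1 of 9 of Id4 and 2 of 4 of Tcf3, whose expression was lower. For Tcf4, whose expression was called in neither step, 5 of 15 peaks were gained. The 5mC losses of Id genes in that step were at 4 of 17 peaks of Id2 and at the 1 peak of Id3, whose expression was lower (9.36% of all 5mC peaks were lost).

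Peaks of both marks overlapped by at least 1 bp at 11 loci, 4 near Tcf4, 3 each near Id2 and Id4, and 1 near Tcf3. These were 28.9% of the 38 5mC peaks and 23.4% of the 47 5hmC peaks, against 12.2% and 14.2% over all peaks. A loss of 5mC together with a gain of 5hmC occurred at 0 of the 11 from PP to DP (3.2% of all 6727 shared loci), at 2 from DP to neurons (12.5% of all) and at 4 over the whole path from PP to neurons (18.8% of all).

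The 4 loci were in or near Tcf4, Tcf3 and Id2. At 36.7 kb inside Tcf4, 5mC was 4.46, 4.25 and 2.98 in PP, DP and neurons and 5hmC was 4.51, 5.26 and 5.53. At 94.7 kb inside it, 5mC was 4.91, 4.95 and 3.47 while 5hmC was 2.52, 4.13 and 4.86. At both, 5hmC was gained from PP to DP and 5mC was lost from DP to neurons, and at the second 5hmC was gained again in that later step. At the locus 18.1 kb upstream of Tcf3 neither single step held both calls, and at the one 7078 bp downstream of Id2 the 5mC loss fell in the step from DP to neurons.

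The locus 57.7 kb downstream of Id2 had both calls from DP to neurons, with 5mC at 5.69, 6.05 and 4.96 and 5hmC at 3.38, 3.68 and 4.99. The one 122.0 kb upstream of Id2 gained 5hmC alone in that step (4.48, 4.17 and 5.08) with 5mC at 5.59, 5.45 and 5.23. Upstream of Tcf4 by 13.6 kb the marks went opposite to this order, with 5mC gained (4.61 to 5.24) and 5hmC lost (4.69 to 3.81) from PP to DP, and 5mC was then lost from DP to neurons (5.24 to 4.25). At 95.4 kb inside Tcf4, 5mC was lost from DP to neurons while 5hmC stayed at 5.60, 5.28 and 5.40.

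The 3 loci near Id4 held none of these joint calls. Of all shared loci, 3.2% held them from PP to DP, 12.5% from DP to neurons and 18.8% from PP to neurons. With 3 loci, a difference from these shares cannot be read. At 19.4 kb upstream the swing of 5mC described above met 5hmC between 6.44 and 6.73. At 87.9 kb upstream 5hmC was gained from DP to neurons over 5mC of 5.27, 5.15 and 4.77, and at 95.9 kb neither mark was called.

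**Figure D5:**
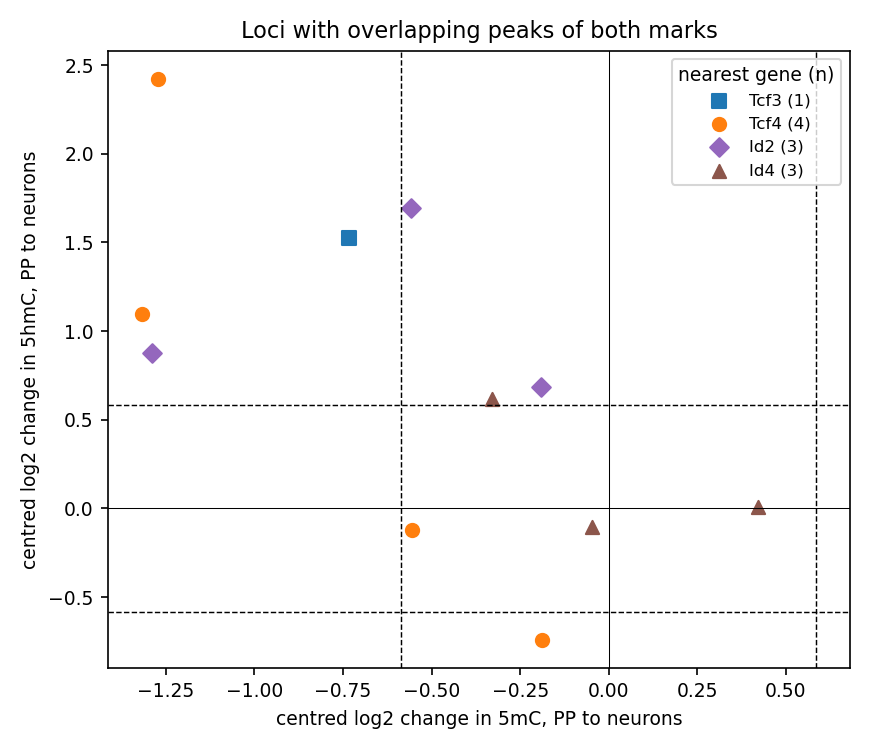
Centred log2 difference from PP to neurons of 5mC (x axis) against 5hmC (y axis) at the 11 loci where peaks of both marks overlap, coloured by nearest gene; dashed lines mark the 1.5-fold size and there are no error bars. The 4 points in the upper left, past both lines, are 2 of Tcf4, 1 of Tcf3 and 1 of Id2, and 0 of the 3 Id4 points are there. Of all 6727 shared loci, 18.8% pass both lines in this way.

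Peaks of the other bHLH and BMP genes were counted in the same way. Class II bHLH genes held 34 5mC peaks, of which 4 were gained and 6 lost from DP to neurons (11.8% and 17.6%, against 5.12% and 9.36% of all 5mC peaks), and 52 5hmC peaks, of which 6 were gained and 8 lost in that step (11.5% and 15.4%, against 16.5% and 7.07% of all 5hmC peaks). The 10 5mC peaks of Hes and Hey genes had 0 gained and 1 lost, and their 19 5hmC peaks 1 gained and 2 lost. The BMP-SMAD list had 7 gained (7.61%) and 8 lost (8.70%) of 92 5mC peaks, and 14 gained (15.6%) and 4 lost (4.44%) of 90 5hmC peaks. The differences between these lists and the E-protein and Id genes were not tested.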

How the data were processed

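The authors enriched 5mC or 5hmC by antibody from a pool of the 3 sorted populations' DNA, in which adaptor barcodes kept the cell types apart. The submitters' processing notes name mm10, bcl2fastq 1.8.4, BWA 0.7.8-r455, SICER 1.1, DiffBind, HOMER 4.7 and deepTools 2.2. Peaks overlapping repeats were left out by the authors, so that loci in repeats are not seen here. The deposited levels are log2 values of the TMM-normalized mean of a peak per cell type. The deposited expression score comes from an earlier RNA-seq, and the deposited distance score is in bp to the nearest TSS. The authors' own fold changes, p-values and adjusted p-values for each pair of cell types are also in the tables and were not used.

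Differences were computed with python 3.11.15, pandas 2.3.3 and numpy 2.4.6 from the averaged levels, centred on the median of all peaks of the mark, and called at 1.5-fold. With no replicate values there is no test, standard deviation or interval, and the deposited tables hold no counts that give the depth behind a level. The expression pseudocount was 1. Overlap needed 1 bp. The calling was tested on simulated data. Members and lists were chosen with earlier results of these data known.

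All 7 genes are named. Values are given for all peaks of a mark where a gene had at most 6, otherwise for the strongest peak, the one nearest to the TSS and the largest rise and fall in each step, and for overlapping peaks of both marks that reached 1.5-fold. Lists give at most 4 examples, those with the largest expression difference from PP to neurons. The split of Tcf4 peaks by place and of all peaks by level, and the joint count over the path from PP to neurons, were chosen after the values were seen. Alternatives were no centring, a fold minimum of 2, peaks at or above the median level (by mean or by highest level), peaks inside the gene or within 50 kb, a pseudocount of 50, median-centred expression and an overlap of at least 50% of the shorter peak. Of the lists, 0 of 6 erythroid markers had a value.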

Additional observations from a re-analysis of the deposited data

How the results depend on the processing

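No paired analysis was possible because each column holds 1 averaged value per cell type and the labels carry no replicate numbers. For the same reason no replicate could be left out. In what follows the share of all peaks under the same setting stands in parentheses. With a fold minimum of 2, the 5mC peaks gained and lost from PP to DP numbered 0 (0.659%) and 2 (0.96%) of 38. The 5hmC peaks gained and lost from PP to DP numbered 5 (5.07%) and 0 (0.56%) of 47, and those gained from DP to neurons 8 (8.03%). The shared loci with less 5mC and more 5hmC from PP to neurons were 2 of 11, an alternative added after seeing the data. The share of all shared loci at this setting was not computed, so the 2 cannot be set against it. Only peaks with a mean at or above the median level of their mark, 10 for 5mC and 18 for 5hmC, left 0 gained (1.27%) and 0 lost (1.21%) for 5mC from PP to DP, 0 gained (1.86%) and 2 lost (3.34%) for 5mC from DP to neurons, 2 gained (4.53%) and 0 lost (1.9%) for 5hmC from PP to DP, and 2 gained (7.81%) for 5hmC from DP to neurons. By the highest level instead, also added after seeing the data, the 15 5mC peaks gave 1 gained (2.06%) and 2 lost (2.2%), then 0 gained (2.2%) and 6 lost (5.55%), and the 19 5hmC peaks 3 gained (9.97%) and 0 lost (2.73%), then 5 gained (15.9%). Only peaks inside the gene or within 50 kb, 22 for 5mC and 29 for 5hmC, gave 2 lost (5.4%) for 5mC and 1 lost (4.72%) for 5hmC from PP to DP, and 8 gained (17.4%) for 5hmC from DP to neurons. These subsets hold fewer peaks by construction. Without centring no direction turned for a called peak, and 3 peak differences newly passed 1.5-fold. The 9 expression calls of 14 were also 9 with a pseudocount of 50 and after centring on all genes, and the 11 shared loci were also 11 with the stricter overlap.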

Other observations

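Genes whose expression ran most like each of the 7 were sought among 11326 genes with a score of at least 100 in some cell type, by the distance between their pairs of log2 differences (PP to DP and DP to neurons). With 3 cell types and averaged values, the likeness is a description. The nearest to Tcf4 were Phf21a (distance 0.026) and Hnrnph3 (0.028), to Tcf3 Bcl2l11 (0.023) and Spg20 (0.026), and to Tcf12 Azi2 (0.0090) and Gm13477 (0.024). For the Id genes they were Parp4 (0.031) and Bcar3 (0.034) for Id1, Sh3kbp1 (0.045) and Gm11738 (0.054) for Id2, Fam40b (0.050) and Ezr (0.061) for Id3, and Msrb3 (0.040) and Prdm16 (0.069) for Id4. Prdm16, a zinc finger regulator of neural stem cells, had scores of 17368 in PP and 7512 in DP against 708 in neurons.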
